A study of Homo sapiens with 6 samples.

Results

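The 10 genes described here are feedback inhibitors of the RAS-ERK pathway and the ETS-family transcription factors ETV4 and ETV5, taken by name from 59332 distinct gene names in a table of RNA-seq values. They are the dual-specificity phosphatase genes DUSP4, DUSP5 and DUSP6, the Sprouty genes SPRY1, SPRY2 and SPRY4, the SPRED genes SPRED1 and SPRED2, and ETV4 and ETV5. All 10 were found, and all 10 reached 1 FPKM in at least 3 libraries, the level required for testing. FPKM scales a gene's sequenced fragments by its transcript length and by the library total, so levels can be compared between genes per unit of length.

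RNA was sequenced from SW480 cells, a long-established human line from a colorectal cancer. There were 3 replicates overexpressing HNF4A and 3 control replicates without a named added gene. HNF4A is a nuclear receptor and transcription factor of liver and gut epithelium. The titles of all 6 libraries contain lenti, and the control columns of the deposited values are headed plenti. The labels say no more of the vector. Medium and culture state were described as the same for both groups. Whether each group was a pool or 1 clone, and which HNF4A isoform was added, is not given in the sources used here. Whether the replicates were grown as separate cultures was not established here. The p-values therefore measure the spread between replicates of a line, and a difference between the starting cell populations cannot be told apart from HNF4A.

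Growth factor receptors activate RAS, which signals through RAF and MEK to the kinase ERK. ERK switches on genes that damp the same cascade. The phosphatases remove the activating phosphates from ERK and related kinases, Sprouty and SPRED proteins act upstream near RAS and RAF, and ETV4 and ETV5 carry the signal to further genes. Levels of these transcripts are widely read as a sign of ERK pathway output.

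HNF4A itself was at 1143, 721 and 852 FPKM in the overexpression libraries, against 8.81, 6.57 and 7.47 FPKM in the control libraries, and every library matched its label (limma adjusted p = 9.93e-07). FPKM keeps no read counts, so the depth is unknown. FPKM summed to between 615594 and 652879 in overexpression and between 628487 and 637244 in control. Of 7 colorectal epithelial markers all 7 were tested, with 2 higher, 0 lower and 5 that did not pass. Over all tested genes 3.40 percent were called higher and 1.39 percent lower. The villin gene VIL1 rose to 32.3 ± 4.36 FPKM in overexpression, against 12.1 ± 2.46 FPKM in control (SD, n = 3 each, limma adjusted p = 0.00182). The E-cadherin gene CDH1 rose to 17.7 ± 0.554 FPKM in overexpression, against 12.0 ± 0.938 FPKM in control (adjusted p = 0.00522). EPCAM and 3 keratin genes stood above 100 FPKM in every library. The intestinal transcription factor gene CDX2 was at 21.8 to 28.8 FPKM in overexpression and 16.5 to 21.7 FPKM in control (adjusted p = 0.110). Means of the 7 markers were higher in 4 and lower in 3, the keratin genes. KRT18 averaged 2050 FPKM in overexpression and 2428 FPKM in control (adjusted p = 0.0956), and KRT19 687 and 782 FPKM (0.140), both without overlap. KRT8 averaged 2112 and 2259 FPKM, with overlap (0.544). Of 9 markers of fibroblasts, blood cells and endothelium 7 were under the filter, with PTPRC at 0 to 0.0860 FPKM in overexpression and 0 to 0.0509 FPKM in control. The exceptions were COL1A1, at 2.82 to 3.27 FPKM in overexpression and 1.87 to 2.53 FPKM in control (adjusted p = 0.117), and the macrophage marker CD68. CD68 rose to 2.74 ± 0.147 FPKM in overexpression, against 0.582 ± 0.196 FPKM in control (SD, n = 3 each, limma adjusted p = 0.00160). CD68 was under 1 FPKM in every control library, so it passed the filter only through the overexpression libraries. VIL1, CDH1 and CD68 passed in all 6 fits that left out 1 library. Those fits kept the same filter, and the single markers were chosen for mention after their values were seen. The 9 markers of other cell types summed to between 6.26 and 6.55 FPKM in overexpression, against 2.64 to 3.67 FPKM in control. The part of either marker list in the results was not tested. Mitochondrially encoded genes, taken as a sign of RNA quality, summed to 57750 to 63990 FPKM in overexpression and 57040 to 61830 FPKM in control.

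Of the members 9 were lower on average in HNF4A overexpression and 1, SPRY1, was higher. Mean levels of those below control were 77.2 to 95.4 percent of it, while SPRY1 was at 222 percent. After adjustment over all 14106 tested genes 2 members passed: SPRY1 rose and SPRED2 fell, and the other 8 did not pass. By the same rule 4.79 percent of all tested genes were called, 3.40 percent higher and 1.39 percent lower. At an unadjusted p under 0.05, 7 members were lower and 1 higher, where 7.29 and 10.8 percent of all tested genes were. The 3 overexpression libraries lay below all 3 controls in 7 members, as did 10.1 percent of all tested genes, and 46.9 percent of tested genes had a log2 change below 0. The median log2 change of the members was -0.20, beside 0.01 over all tested genes. In bulk RNA, fewer cells expressing a gene and less of its RNA per cell cannot be told apart.

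**Figure D1:**
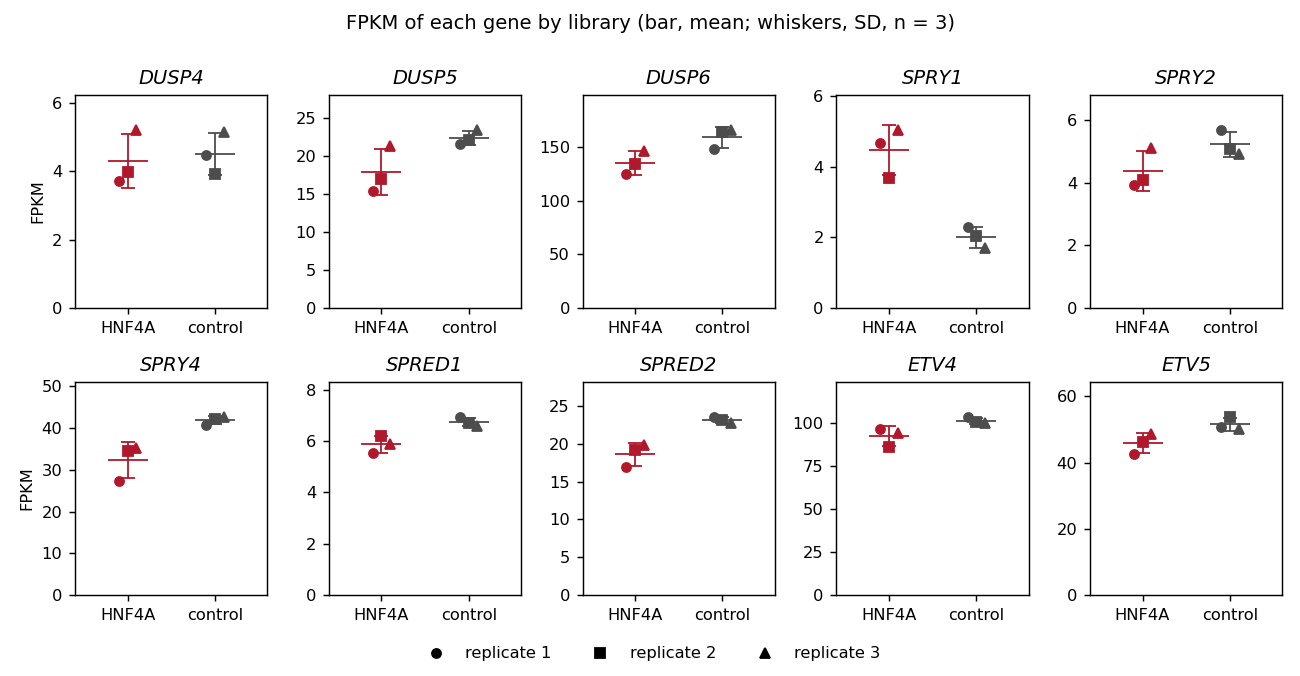
FPKM (vertical axes, each from 0) of the 10 genes in the 3 HNF4A overexpression libraries (red) and the 3 control libraries (grey), with symbols for replicates, a bar for the mean and whiskers for the SD. SPRY1 is higher in every overexpression library, at 3.68 to 5.04 FPKM against 1.69 to 2.28 FPKM in control, while DUSP4 and SPRY2 overlap between groups and the other 7 genes lie lower.

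The Sprouty genes did not move together. SPRY1, an inhibitor of receptor tyrosine kinase signalling, was at 4.68, 3.68 and 5.04 FPKM in the overexpression libraries, against 2.28, 2.05 and 1.69 FPKM in the controls. Every overexpression library lay above every control. Its mean was 4.47 ± 0.702 FPKM in overexpression and 2.01 ± 0.300 FPKM in control (SD, n = 3 each), a ratio of 2.22. On the scale of log2(FPKM + 1), which understates changes of genes this low, it gained 0.86 (standard error 0.126, limma adjusted p = 0.00783). It passed in all 6 fits that left out 1 library (adjusted p between 0.0107 and 0.0342). With no filter on low values the adjusted p was 0.0757, the highest over all alternatives, whose lowest was 0.00782. By exact permutation, two-sided, p was 0.1, and 20 assignments of 3 against 3 libraries allow no smaller value.

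SPRY4, the most abundant Sprouty gene, was at 27.4, 34.5 and 35.1 FPKM in overexpression, against 40.7, 42.3 and 42.6 FPKM in control. The groups did not overlap, and overexpression replicate 1 was the lowest library. The log2 change of -0.37 (standard error 0.0906) missed the threshold (limma adjusted p = 0.0590). Its adjusted p was 0.0484 when each library was scaled by its median ratio, and lay between 0.0313 and 0.213 under all alternatives run. SPRY2 was at 3.92, 4.08 and 5.11 FPKM in overexpression and 5.68, 5.09 and 4.92 FPKM in control. These ranges overlapped, through overexpression replicate 3, and the log2 change was -0.22 (95 percent interval -0.462 to 0.021, limma adjusted p = 0.325).

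Ratios taken within a library do not depend on scaling between libraries. SPRY1 stood at 0.171, 0.107 and 0.143 of the SPRY4 level in the overexpression libraries, against 0.0561, 0.0485 and 0.0396 in the controls. The 2 groups of ratios did not overlap, with a difference of 1.53 on the log2 scale (exact two-sided permutation p = 0.1, the smallest possible). SPRY1 was about level with SPRY2 in overexpression, at 1.03 ± 0.149 times its FPKM (SD, n = 3), and below it in control, at 0.382 ± 0.0342 times (SD, n = 3).

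SPRY1 lies on chromosome 4 from 123396795 to 123403760 on the plus strand (GRCh38, GENCODE 29), with no overlapping gene, and SPRED2 on chromosome 2 from 65310851 to 65432637 on the minus strand, with a noncoding gene within it on the same strand. RefSeq promoter sequences (GRCh38.p14) were at hand for 6 of the 10 members, with several starts for some. The stretches before the outermost listed starts of SPRY1 and SPRED2 are shown because these members passed in opposite directions, with bases in annotated exons left out. Capitals mark GGAA on either strand, the core of the sites that ETS factors such as ETV4 and ETV5 bind. The SPRY1 stretch is chr4:123396545-123396794 on the plus strand and the SPRED2 stretch chr2:65432638-65432849 on the minus strand.
SPRY1: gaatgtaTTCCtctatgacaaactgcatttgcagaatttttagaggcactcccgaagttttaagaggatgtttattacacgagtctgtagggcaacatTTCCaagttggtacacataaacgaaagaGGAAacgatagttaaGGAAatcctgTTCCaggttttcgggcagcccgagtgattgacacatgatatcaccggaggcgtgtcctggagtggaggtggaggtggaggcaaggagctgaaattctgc
SPRED2: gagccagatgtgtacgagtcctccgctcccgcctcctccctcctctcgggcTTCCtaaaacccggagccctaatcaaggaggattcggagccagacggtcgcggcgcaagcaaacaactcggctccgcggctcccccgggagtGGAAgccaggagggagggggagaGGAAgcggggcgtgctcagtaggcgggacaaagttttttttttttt

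The SPRY1 stretch of 250 bases held 5 such cores and the SPRED2 stretch of 212 bases held 3. Another listed start of SPRED2, not printed, had a stretch of 250 bases that also held 5. The numbers therefore depend on the start and the length taken. GGAA on either strand was present in 92.7 percent of the 35116 RefSeq promoters over 250 bases and in 89.4 percent over 212 bases, with medians of 3 and 2 per promoter. The longer ETS form CCGGAA, which contains the core, was in neither printed stretch and in 14.5 and 11.2 percent of promoters. Neither printed stretch held TGAATGAA or TGAATGGA, forms bound by the repressor CIC, or the AP-1 site TGANTCA. Also absent from both were the HNF4 form CAAAGTCCA and AGGTCA, a part of a full nuclear receptor site. Over 250 bases these forms, in the order named, were found in 1.40, 0.832, 6.57, 0.325 and 12.1 percent of promoters. Over 212 bases the shares were 1.28, 0.746, 5.71, 0.271 and 10.4 percent. The absence of letters from these windows says nothing of the factors, and gene-level FPKM does not tell which start was used.

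SPRED proteins bring the RAS-inactivating protein neurofibromin to the membrane. SPRED2 was at 16.9, 19.1 and 19.8 FPKM in overexpression, against 23.5, 23.1 and 22.7 FPKM in control. Every overexpression library lay below every control, and the mean fell to 18.6 ± 1.52 FPKM in overexpression, against 23.1 ± 0.392 FPKM in control (SD, n = 3 each). Its log2 change came to -0.30 (standard error 0.0681, limma adjusted p = 0.0477). That call was lost whichever of the 6 libraries was left out, from 0.0540 without overexpression replicate 3 to 0.129 without control replicate 1, and in the fit without a mean-variance trend (0.0773) and that without a filter (0.139). Its lowest adjusted p over the alternatives was 0.0389.

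SPRED1 was at 5.53, 6.19 and 5.89 FPKM in overexpression, against 6.93, 6.71 and 6.59 FPKM in control. It was the narrower difference of the pair, without overlap between groups, and did not pass (log2 change -0.17, 95 percent interval -0.342 to -0.005, limma adjusted p = 0.264). SPRED1 lies on chromosome 15 from 38252326 to 38357249, SPRY2 on chromosome 13 from 80335976 to 80340951 and SPRY4 on chromosome 5 from 142310427 to 142326455. SPRY4 overlaps the antisense gene SPRY4-AS1, and whether strand was used in counting is unknown.

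**Figure D2:**
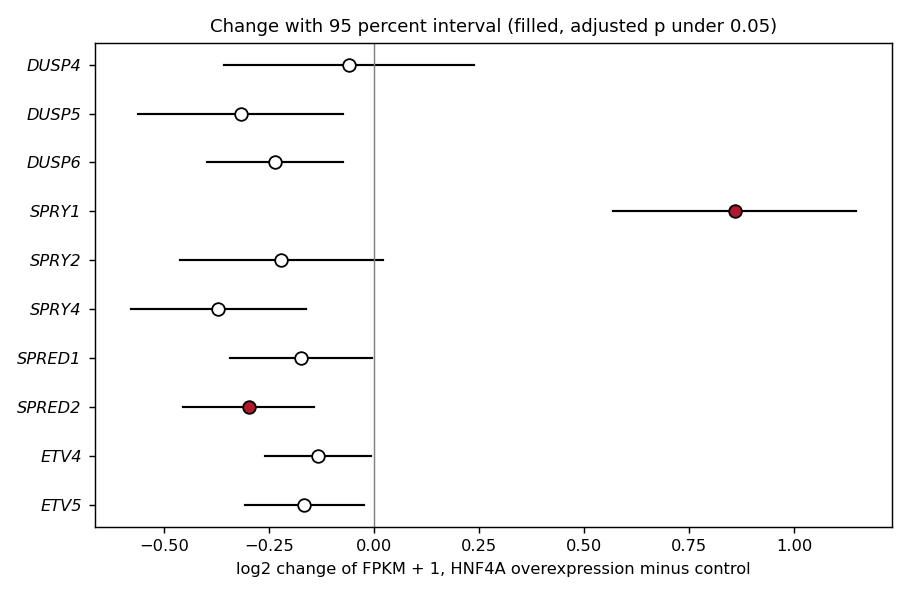
Log2 change of FPKM + 1, overexpression minus control (horizontal axis), for each of the 10 genes, with its 95 percent interval from limma and filled points where the adjusted p was under 0.05. SPRY1 lies at 0.86 and SPRED2 at -0.30, and the intervals of DUSP4 and SPRY2 include 0.

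None of the 3 phosphatase genes passed by limma's adjusted p, and 2 of the 3 were lower at an unadjusted p under 0.05. DUSP6, a cytoplasmic phosphatase specific for ERK, was the most abundant of all members, at 125, 135 and 146 FPKM in overexpression, against 148, 164 and 166 FPKM in control. The groups came close but did not overlap. Its log2 change was -0.24 (standard error 0.0706, limma adjusted p = 0.113, with 0.0212 to 0.2997 over the alternatives).

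DUSP5, a nuclear phosphatase of ERK, was at 15.4, 17.0 and 21.3 FPKM in overexpression, against 21.6, 22.1 and 23.4 FPKM in control. Overexpression replicate 3 nearly reached the lowest control. It differed by -0.32 on the log2 scale (standard error 0.106, limma adjusted p = 0.154), and without that library it was -0.44 (adjusted p = 0.0237, with 0.0237 to 0.373 over the alternatives). DUSP4, a nuclear phosphatase of several MAP kinases, was at 3.72, 3.99 and 5.21 FPKM in overexpression and 4.47, 3.92 and 5.16 FPKM in control. The groups overlapped throughout, and the interval of its log2 change, -0.358 to 0.237, reaches below the estimate for SPRED2. DUSP4 changed sign without overexpression replicate 1 (0.02) or control replicate 3 (0.02).

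The phosphatase genes lie on chromosome 8 from 29333064 to 29350668 (DUSP4), chromosome 10 from 110497838 to 110511544 (DUSP5) and chromosome 12 from 89347232 to 89353271 (DUSP6, which overlaps the antisense gene AC024909.2). The ratio of DUSP6 to DUSP5 was 7.62 ± 0.658 in overexpression and 7.11 ± 0.281 in control (SD, n = 3 each, exact two-sided permutation p = 0.3).

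ETV4 and ETV5 are transcriptional activators of the PEA3 subfamily of ETS factors. ETV4 was at 96.9, 85.9 and 94.4 FPKM in overexpression, against 104, 101 and 100.1 FPKM in control. ETV5 was at 42.6, 46.4 and 48.8 FPKM in overexpression, against 50.8, 53.7 and 50.2 FPKM in control. Both were lower in every overexpression library than in any control, by margins of a few FPKM. The log2 changes were -0.13 for ETV4 (95 percent interval -0.26 to -0.008, limma adjusted p = 0.245) and -0.17 for ETV5 (-0.307 to -0.025, adjusted p = 0.198). Neither passed, and both had an unadjusted p under 0.05.

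ETV4 remained above ETV5, at 2.02 ± 0.225 times its FPKM in overexpression and 1.97 ± 0.0869 times in control (SD, n = 3 each, exact two-sided permutation p = 0.9). ETV4 lies on chromosome 17 from 43527844 to 43579620 and overlaps DHX8 on the other strand. ETV5 lies on chromosome 3 from 186046308 to 186110318 and overlaps DGKG on the same strand, so its value may include shared fragments. ETV1, the third PEA3 factor, was at 2.97, 2.14 and 3.34 FPKM in overexpression and 3.85, 2.57 and 2.69 FPKM in control (limma adjusted p = 0.854). Its groups overlapped.

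The order of levels was the same at the top in both groups. DUSP6 was followed by ETV4, ETV5 and SPRY4 with no overlap between neighbours. SPRED2 and DUSP5 came next and overlapped in both groups, at 15.4 to 21.3 FPKM in overexpression and 21.6 to 23.5 FPKM in control over both genes. SPRED1 followed. At the low end SPRY1, SPRY2 and DUSP4 overlapped in overexpression, between 3.68 and 5.21 FPKM, whereas in control SPRY1 was the lowest member and lay below all libraries of DUSP4.

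**Figure D3:**
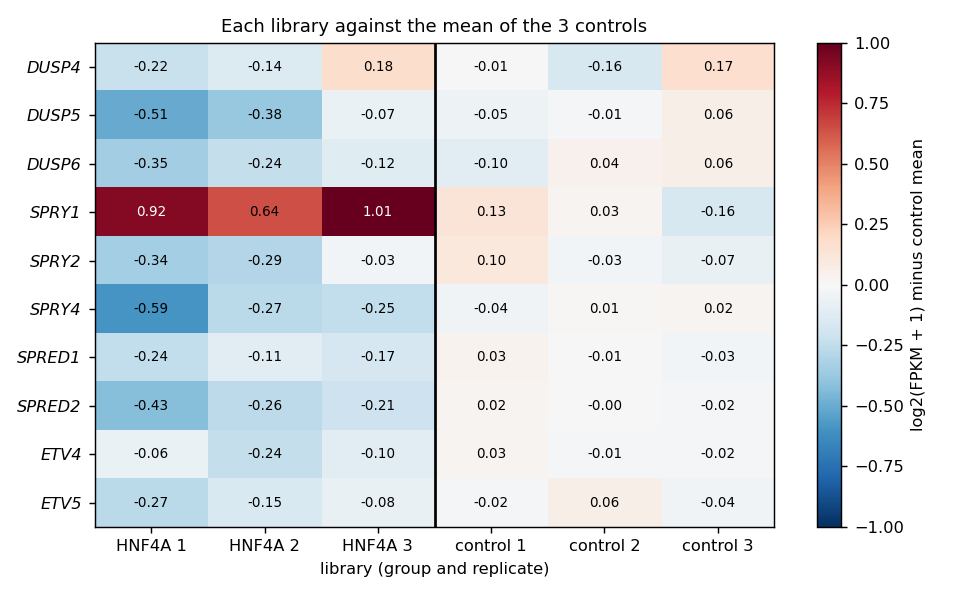
Difference of log2(FPKM + 1) in each library (columns, overexpression left of the line) from the mean of the 3 controls, for each gene (rows), with red for higher and blue for lower. Overexpression replicate 1 is the deepest blue in most rows, and replicate 3 lies nearest the controls in DUSP5, DUSP6 and SPRY2.

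The overexpression libraries differed among themselves. Replicate 1 was the lowest of the 3 in 8 members, replicate 2 in 2 and replicate 3 in 0, and replicate 3 was the highest in 8. The median difference of the 10 members from the control mean was -0.305, -0.237 and -0.09 on the log2 scale in overexpression replicates 1 to 3, against 0.009, -0.004 and -0.02 in controls 1 to 3. HNF4A was highest in replicate 1, at 1143 FPKM, and lowest in replicate 2, at 721 FPKM. Without overexpression replicate 1, 8 members were below 0 and 4 of them at an unadjusted limma p under 0.05. Leaving out control replicate 3 gave the same 8 and 4, and leaving out control replicate 2 gave 9 and 4. Each other omission of 1 library gave 9 below 0, with 5 or 6 at that level.

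SPRY1 had the largest change of the members. The 3 tested genes nearest to it in profile over the 6 libraries, by the root mean square difference of centred log2(FPKM + 1) values, were the peptide transporter gene SLC15A1 (0.0683), the receptor gene GPR35 (0.0954) and INAVA (0.102). SLC15A1 was at 1.55, 1.15 and 1.50 FPKM in overexpression, against 0.368, 0.281 and 0.246 FPKM in control. GPR35 was at 13.8, 13.3 and 14.3 FPKM in overexpression, against 7.94, 6.82 and 6.66 FPKM in control. INAVA was at 19.8, 17.4 and 19.7 FPKM in overexpression, against 10.2, 9.35 and 9.86 FPKM in control. These genes were chosen by profile over the same libraries, so their separation between groups follows from the choice, and SLC15A1 passed the filter only through the overexpression libraries.

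The cascade itself showed no call. Of 18 genes from adaptors to ERK all were tested, and 0 passed by limma, with a median log2 change of -0.01. At an unadjusted p under 0.05, 1 was higher and 1 lower, where 10.8 and 7.29 percent of all tested genes were. The 1 higher gene passed the filter only through the overexpression libraries. The most abundant were MAP2K2, which encodes MEK2, at 66.9 ± 1.12 FPKM in overexpression and 62.7 ± 5.35 FPKM in control, and the adaptor gene SHC1, at 54.3 ± 8.08 FPKM in overexpression and 62.8 ± 6.74 FPKM in control (SD, n = 3 each).

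Among 16 receptor and FGF ligand genes 13 were tested and 0 passed by limma, with 3 higher and 3 lower at an unadjusted p under 0.05. At that level 10.8 percent of all tested genes were higher and 7.29 percent lower. FGF19, an endocrine growth factor of the ileum, was at 110.1, 138 and 126 FPKM in overexpression, against 149, 178 and 154 FPKM in control, with no overlap (adjusted p = 0.0701). FGFR1 averaged 30.3 ± 1.35 FPKM in overexpression and 34.3 ± 2.17 FPKM in control (SD, n = 3 each, limma adjusted p = 0.190). FGF19 and FGFR1 were named as the most abundant of this list, and both were among its 3 lower genes, beside 3 higher. Of 10 relatives of the members 6 were tested and 0 passed by limma, with 1 higher and 1 lower at an unadjusted p under 0.05. The most abundant were DUSP7, at 7.16 ± 0.166 FPKM in overexpression and 8.55 ± 0.375 FPKM in control, and DUSP2, at 5.88 ± 0.70 FPKM in overexpression and 6.83 ± 1.21 FPKM in control (SD, n = 3 each). SPRY3 and SPRED3 were under the filter, as were DUSP9 and DUSP10.

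Other negative regulators of the pathway gave 3 lower and 1 higher of 12 tested, with 8 that did not pass and a median log2 change of -0.05. Shares over all tested genes were 1.39 percent lower and 3.40 percent higher. IL17RD, an inhibitor of FGF signalling, fell to 8.13 ± 0.796 FPKM in overexpression, against 11.1 ± 0.664 FPKM in control (SD, n = 3 each, limma adjusted p = 0.0318). ERRFI1, which binds and inhibits the EGF receptor, fell to 9.38 ± 0.642 FPKM in overexpression, against 13.5 ± 1.79 FPKM in control (adjusted p = 0.0361). PTPRJ, a receptor tyrosine phosphatase gene, fell to 15.9 ± 0.969 FPKM in overexpression, against 20.4 ± 1.70 FPKM in control (adjusted p = 0.0471).

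LRIG1, which promotes loss of ERBB receptors, rose to 15.8 ± 1.29 FPKM in overexpression, against 11.9 ± 0.86 FPKM in control (limma adjusted p = 0.0358). Each of these 4 calls passed in only 1 of the 6 fits that left out a library: LRIG1 (0.0317) and IL17RD (0.0252) without overexpression replicate 3, ERRFI1 (0.0134) without control replicate 1 and PTPRJ (0.0425) without control replicate 3. Their adjusted p-values in the other 5 reached 0.107 to 0.14, and with no filter on low values all 4 missed the threshold (0.119 to 0.153). Without the mean-variance trend LRIG1 (0.0546), ERRFI1 (0.0554) and PTPRJ (0.0742) missed it too, while IL17RD passed (0.0427). Among 9 nuclear regulators downstream of ERK 1 was lower, beside 1.39 percent of all tested genes. ETV3, an ETS-family repressor, fell to 48.1, 53.9 and 49.5 FPKM in overexpression, against 69.0, 79.4 and 73.0 FPKM in control (adjusted p = 0.00363), and it passed in all 6 of those fits. CIC, a repressor whose known targets include the PEA3 factors, was at 17.8 ± 0.417 FPKM in overexpression and 18.9 ± 1.06 FPKM in control (adjusted p = 0.548).

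Of all tested genes, limma called 1.39 percent lower and 3.40 percent higher. Of 22 other genes known as ERK outputs, all tested, 8 fell, 1 rose and 13 did not pass, with a median log2 change of -0.12. Lists such as this were chosen with earlier results of these data known, so the count is a description. Of the 4 that are commonly scored with the members, EPHA4, CCND1 and EPHA2 fell and PHLDA1 did not pass. The ephrin receptor gene EPHA4 fell to 7.03, 7.58 and 8.28 FPKM in overexpression, against 12.0, 12.0 and 12.7 FPKM in control (log2 change -0.62, limma adjusted p = 0.00347). EPHA2 fell to 48.8, 53.5 and 57.9 FPKM in overexpression, against 66.8, 66.7 and 66.8 FPKM in control (adjusted p = 0.0289). The cyclin D1 gene CCND1 averaged 509 ± 27.2 FPKM in overexpression and 629 ± 34.7 FPKM in control (adjusted p = 0.0267). PHLDA1 was at 38.6, 40.1 and 47.1 FPKM in overexpression and 35.4, 38.4 and 46.2 FPKM in control, with full overlap (adjusted p = 0.812).

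The other ERK output genes that fell were the AP-1 gene FOSL1, the early response gene IER3, the cytokine gene LIF, the potassium channel gene KCNN4 and the ETS gene ELK3. FOSL1 averaged 74.8 ± 0.554 FPKM in overexpression and 102 ± 7.19 FPKM in control (SD, n = 3 each, limma adjusted p = 0.00451). IER3 averaged 143 ± 11.1 FPKM in overexpression and 202 ± 7.74 FPKM in control (adjusted p = 0.00420). LIF averaged 22.7 ± 1.35 FPKM in overexpression and 32.7 ± 0.473 FPKM in control (adjusted p = 0.00254). KCNN4 averaged 17.0 ± 0.868 FPKM in overexpression and 22.9 ± 0.174 FPKM in control (adjusted p = 0.0068), and ELK3 16.1 ± 1.75 FPKM in overexpression and 23.5 ± 3.04 FPKM in control (adjusted p = 0.0346). The sphingosine kinase gene SPHK1 rose to 7.85 ± 1.73 FPKM in overexpression, against 4.57 ± 0.75 FPKM in control (adjusted p = 0.0464).

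EPHA4, FOSL1, IER3, LIF and KCNN4 passed in all 6 fits that left out 1 library, and their adjusted p-values over all alternatives stayed at or below 0.0486. ELK3 passed in 2 of those fits, without overexpression replicate 3 (0.0328) or control replicate 2 (0.0175). EPHA2 passed without overexpression replicate 3 (0.019) and CCND1 without overexpression replicate 2 (0.048), with values up to 0.0862 and 0.0811 in the others. SPHK1 passed in 0 of them (0.0511 to 0.134). Those 4 genes also missed the threshold without the trend (0.0597 to 0.0667) and without the filter (0.121 to 0.196). The count of lower genes was 5 without overexpression replicate 1, control replicate 1 or control replicate 3, and likewise without the trend or without the filter.

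**Figure D4:**
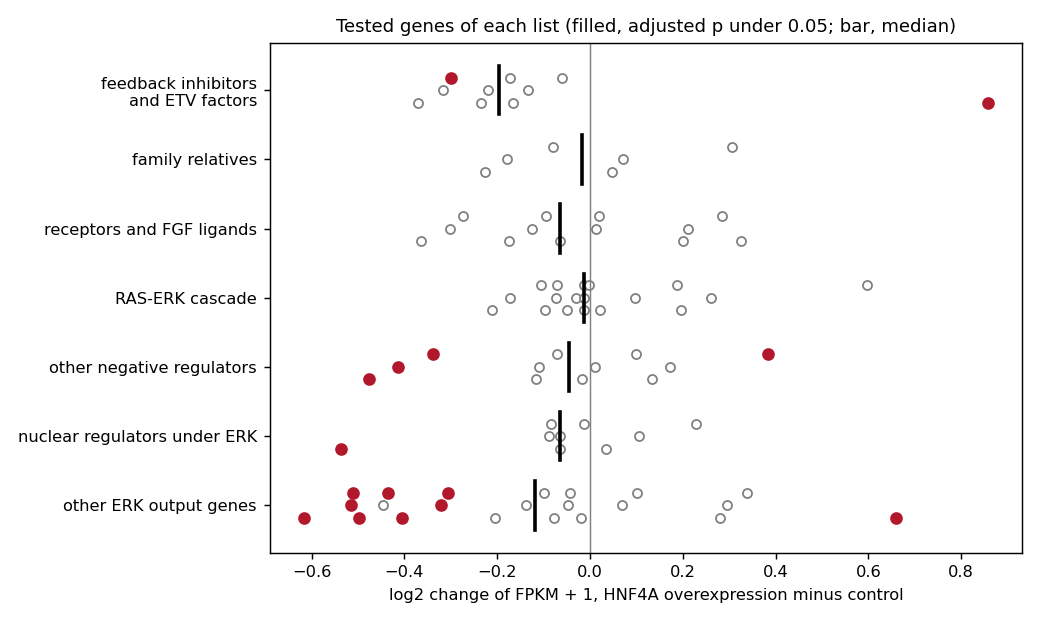
Log2 change of FPKM + 1, overexpression minus control (horizontal axis), for the tested genes of each list, with filled points where the adjusted p was under 0.05, open points otherwise and a bar at the median. The 10 feedback inhibitors and ETV factors have a median of -0.20, and 8 filled points lie left of 0 among the other ERK output genes, while the cascade has none.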

How the data were processed

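RNA-seq was run as paired-end reads on an Illumina NovaSeq instrument, per the labels' protocols. The authors deposited FPKM values for 60694 gene rows in the 6 libraries. Cufflinks, TopHat, TopHat2, Bowtie2, Bowtie, FastQC and hg38 stand in the submitters' processing notes, without version or role. Annotation, strandedness and settings: not given in the sources used here. Without counts the depth is unknown, so no counting interval or floor is given. For the 215 names that stand on more than 1 row, that of highest mean FPKM represented the gene, which among the listed genes concerned ERBB3 alone.

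Libraries were grouped by labelled genotype. Columns were matched to samples by name, and 0 other library columns were left over. Values were tested as log2(FPKM + 1) with limma 3.58.1 in R 4.3.3 (lmFit, then eBayes with its trend option, and no covariates), over the 14106 genes with at least 1 FPKM in at least 3 libraries. P-values were adjusted across all genes by Benjamini-Hochberg, with a threshold of 0.05. The script was tested on simulated data. The exact permutation test was run on single values.

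The members and lists were chosen with earlier results of these data known. Named were HNF4A, all members, CIC, ETV1, PHLDA1, CCND1, EPHA2 and EPHA4, passing genes of each pathway list or, where 0 passed, its 2 most abundant, and the 3 genes nearest in profile to the member with the largest change. A result that the rule also named is not reported here. The 13 alternatives changed the pseudocount to 0.1, the filter, the scaling (quantile normalization or median ratio), the trend, the treatment of repeated names, the replicate block, or left out each library. The authors' own means, fold changes and p-values were not used here.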

Additional observations from a re-analysis of the deposited data

How the results depend on the processing

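Of the members, SPRY1 kept its direction under all 13 alternatives and its call under 12 of them. With no filter on low values 0 members were higher and 0 lower, and over all genes 201 were higher and 49 lower, in place of 480 and 196. The number of lower members was 2 with median-ratio scaling (SPRED2 and SPRY4), 0 without the mean-variance trend and 2 under the replicate block (DUSP6 and SPRY4). The replicate block gave 638 higher and 399 lower genes over the table. It called SHC1 (adjusted p = 0.0432) and FGF19 (0.00903) lower as well, and PTPRJ lost its call (0.0565), as did SPRED2 (0.0508). Deviations of same-numbered libraries from their group means correlated at 0.139, 0.091 and 0.15 across genes, which are not independent, and each library correlated best with its own number. Libraries of different numbers correlated at -0.124 to -0.013. The labels name no covariate, and the numbers were not taken as pairing the replicates. With 1 library left out, between 274 and 313 genes were higher and between 87 and 161 lower, and 0 to 1 members were lower. The range of log2 change in these fits spanned 0 for DUSP4 (-0.179 to 0.023), PHLDA1 (-0.016 to 0.174) and ETV1 (-0.179 to 0.059). DUSP4 was at 0.019 without overexpression replicate 1, PHLDA1 at -0.012 without control replicate 1 and ETV1 at 0.054 without overexpression replicate 2. LRIG1 lost its call with quantile normalization (0.0522), as did SPHK1 (0.0723), which also lost it with median-ratio scaling (0.0524). Why calls changed under these settings was not tested. FPKM without counts limits what low genes such as SPRY1, SPRY2 and DUSP4 can show.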
